A study of Sus scrofa with 22 samples.

Results

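Small RNA of subcutaneous fat was compared between Pietrain pigs with thick and with thin fat, in all 7 Pietrain samples among the 22 samples of the study. The labels place 4 samples in the thick and 3 in the thin class, and the read counts came from the Pietrain table alone. All 7 pigs were female and aged 6 months, the tissue went into RNAlater after slaughter, and no treatment or allele is named. The labels do not give the thickness that separates the classes, the library or sequencing batch, or a pairing of animals, so p-values measure only the spread between these libraries, and a batch that went with fat class cannot be told apart from fat class. Replicates are numbered here as thick 1 to 4 and thin 1 to 3.

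MicroRNAs (miRNAs) are short RNAs that guide Argonaute proteins to messenger RNAs and lower their output. Base pairing runs mainly through the seed, bases 2 to 8 from the 5′ end, so miRNAs with the same seed share many targets. In fat, miR-148a-3p, miR-143-3p and miR-26a are known to promote the formation of adipocytes, miR-27a and miR-155-5p to hold it back, and the let-7 family to restrain proliferation and to act on insulin signalling. A miRNA gene yields a set of isomiRs, reads that start or end a base away from the main sequence or carry a changed or added base. An isomiR with a changed first base keeps the seed of its miRNA.

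The deposited table held 7039 sequences of 17 to 25 nt. Of these, 6993 carried a name and fell under 211 miRNA names, and the 46 without a name held 0.0401% of reads and were left out. Library totals ran from 759210 reads in thick 3 to 3137757 reads in thick 2, and the 3 thin libraries, at 1552041 to 1699019 reads, lay between the 2 deep and the 2 shallow thick libraries. No library listed a count from 1 to 5, so up to 5 reads of a sequence may hide behind a listed 0. The miRNA markers of fat were abundant in both classes: all 10 on the list were measured, and together they held 455547 to 507324 CPM (counts scaled to a common library size) in thick and 435278 to 541239 CPM in thin fat.

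The sequences that lead the comparison of miRNA levels are shown here because their seeds group them, with the seed in capitals. Each is the most abundant sequence of its name in the table, 5′ to 3′.
miR-7: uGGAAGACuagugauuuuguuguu
let-7f-5p: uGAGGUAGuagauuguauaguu
let-7a: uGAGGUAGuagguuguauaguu
let-7c, more abundant form: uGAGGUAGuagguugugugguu
let-7c, other form: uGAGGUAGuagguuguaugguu
let-7g: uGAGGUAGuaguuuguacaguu
let-7i-5p: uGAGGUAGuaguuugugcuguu
miR-140-3p: aCCACAGGguagaaccacggac
miR-21: uAGCUUAUcagacugauguugac
miR-505: gUCAACACuugcugguuuccucu
miR-99a: aACCCGUAgauccgaucuugu
miR-100: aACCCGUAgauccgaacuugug
The table's name let-7c pools 2 forms, of which the more abundant is the sequence usually called let-7b, a name with no value here. The let-7 guides printed share 1 seed and differ from each other by few bases, so reads with errors could be assigned to a neighbour. miR-99a and miR-100, which are known to restrain the growth kinase mTOR, share another.

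Whether thick and thin fat differed in miRNA content was asked first with all sequences of a name summed. miR-7, a miRNA best known from endocrine cells and brain, stood lowest in thick fat by p-value. It had 608.2, 575.0, 546.8 and 432.4 CPM in thick 1 to 4 and 853.0, 1065.1 and 856.1 CPM in thin 1 to 3. Every thick library lay below every thin one. The log2 fold change, thick minus thin throughout, was -0.77 ± 0.18 (SE), with a 95% interval of -1.20 to -0.35, and it missed the threshold of 0.05 (edgeR adjusted p = 0.593). In a tissue sample, fewer cells of a type and less RNA per cell cannot be told apart, here or below.

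edgeR called 0 of the 161 miRNAs tested (0%), and 4 of them (2.48%) had an unadjusted p under 0.05. DESeq2 called 1 of 161 (0.621%), miR-7, at a log2 fold change of -0.79 (DESeq2 adjusted p = 0.00857), and 5 (3.11%) had an unadjusted p under 0.05. Over every setting run, the adjusted p of miR-7 lay between 0.00857 and 0.999. limma-voom called 0, with 8 (4.97%) at an unadjusted p under 0.05. Libraries of the 2 classes did not overlap for 5 of the 161 (3.11%), 3 of them higher (1.86%) and 2 lower (1.24%) in thick fat. By chance, 4 against 3 libraries separate in one direction or the other for a share of 0.0571 of measures. The share seen here was no higher than that, so a lack of overlap does not set a miRNA apart. Fold changes lay above 0 for 86 miRNAs and below 0 for 75, with a median of 0.02. For 71 of the 161, the 95% interval lay within a 2-fold difference in either direction.

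let-7f-5p was the other miRNA whose thick libraries all lay below the thin ones. It had 48531, 52996, 47129 and 55213 CPM in thick fat and 62489, 62846 and 70710 CPM in thin fat. The gap was narrow, and the log2 fold change was -0.36 ± 0.11 (SE; edgeR adjusted p = 0.994). miR-140-3p, known from cartilage and from adipogenesis, had 4355, 3967, 4569 and 5363 CPM in thick and 8099, 5245 and 6909 CPM in thin fat. Its groups overlapped by thick 4 and thin 2 (log2 fold change -0.56 ± 0.19, SE, edgeR adjusted p = 0.994).

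miR-21, which rises in inflammation and fibrosis and promotes adipogenesis, varied most within thin fat. It had 18004, 21104, 22636 and 19356 CPM in thick fat and 16141, 31229 and 51532 CPM in thin fat. Thin 1 lay below all thick libraries and thin 3 at over 2 times each of them. Its log2 fold change of -0.70 ± 0.36 (SE) ran from -1.04 to -0.23 when single libraries were left out.

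Thin libraries also set the other values on the lower side. miR-1468 had 844 to 1024 CPM in thick fat and 2017, 1025 and 889 CPM in thin fat, so thin 1 stood alone (log2 fold change -0.51 ± 0.30, SE). miR-150, a lymphocyte miRNA, had 319 to 382 CPM in thick fat and 636, 403 and 357 CPM in thin fat (-0.41 ± 0.23). The adipogenesis repressor miR-27a had 3077 to 3444 CPM in thick fat and 2868, 4589 and 5482 CPM in thin fat (-0.39 ± 0.23). Thin 1 was high for the first pair and low for miR-27a, so no single thin library led all of these. Without thin 1 the log2 fold changes were -0.083 for miR-1468, -0.14 for miR-150 and -0.63 for miR-27a, and without thin 3 that of miR-27a was -0.18. miR-133a-3p, a skeletal muscle miRNA, had 251, 199.6, 277 and 149 CPM in thick fat and 302, 120 and 983 CPM in thin fat. Its log2 fold change of -1.09 ± 0.66 (SE) turned to 0.057 without thin 3.

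Among miRNAs with more reads in thick fat, miR-505 had 44.3, 48.9, 74.6 and 63.7 CPM in thick fat and 35.1, 39.3 and 27.5 CPM in thin fat. The groups did not overlap, at a low level (log2 fold change 0.76 ± 0.29, SE, edgeR adjusted p = 0.994). With its most abundant sequence alone the log2 fold change was 0.15. miR-99a was among the 10 most abundant miRNAs. It had 84606, 60118, 44753 and 53219 CPM in thick fat and 31295, 49187 and 42123 CPM in thin fat. Thick 3 lay inside the thin range, and the log2 fold change was 0.57 ± 0.26 (SE, 95% interval -0.05 to 1.19). miR-100, of the same seed, stood at 0.29 ± 0.39 and miR-99b at -0.02 ± 0.20.

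The others on the higher side were miR-615, miR-9841-3p, miR-155-5p, miR-23b, miR-744 and miR-24-1-5p, with log2 fold changes from 0.41 to 0.90 and an edgeR adjusted p of 0.994 each. miR-9841-3p did not overlap between classes, at 9.85 to 14.6 CPM in thick and 4.99 to 8.06 CPM in thin fat. miR-769-5p was the third with all thick libraries above the thin ones, and is named because of that count. miR-155-5p, an immune miRNA that holds back adipogenesis, had 409, 397, 252 and 396 CPM in thick and 117, 271 and 310 CPM in thin fat. The other thick libraries were close together, and thick 3 fell inside the thin range. Without thin 1, the log2 fold change was 0.30 for miR-155-5p (0.64 with it), 0.38 for miR-99a, 0.25 for miR-24-1-5p, 0.26 for miR-23b and 1.23 for miR-615. It was 0.37 for miR-99a and 0.25 for miR-24-1-5p without thick 1, 0.10 for miR-23b without thick 3, and 0.26 for miR-744 without thin 3.

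**Figure D1:**
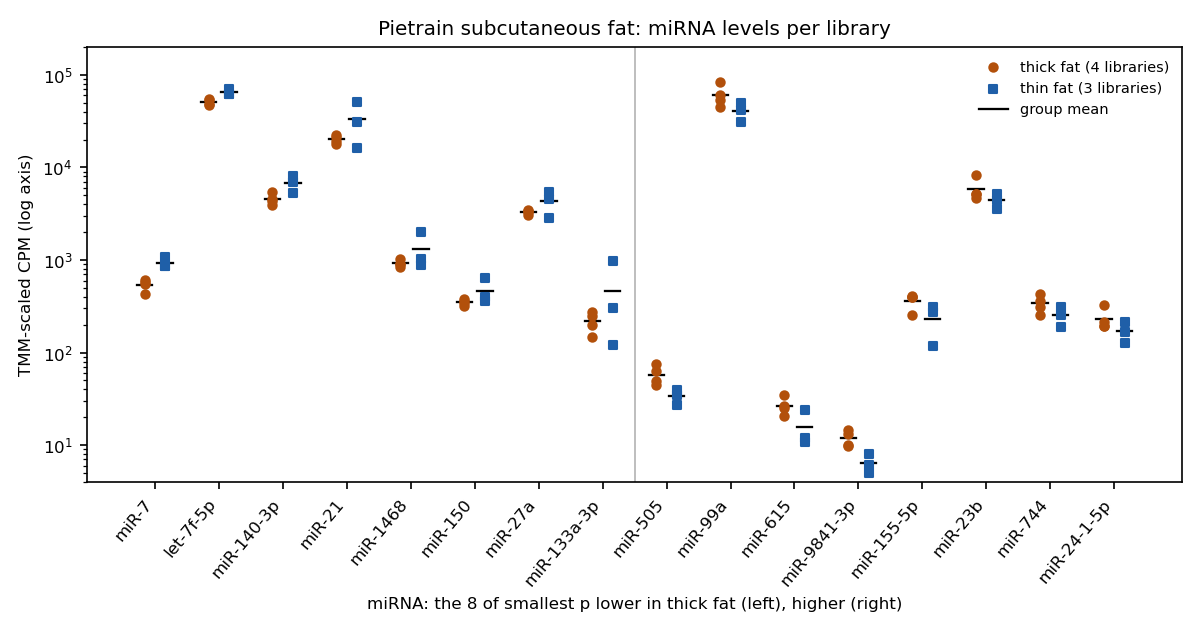
Level of each of the 16 miRNAs with the smallest p-values, 8 lower in thick fat on the left and 8 higher on the right, in CPM scaled to library size on a log axis; circles are the 4 thick and squares the 3 thin libraries, and bars are group means. The groups separate for miR-7, let-7f-5p, miR-505 and miR-9841-3p and overlap for the rest.

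Of the 10 most abundant miRNAs, let-7f-5p and miR-99a are given above and the other 8 had log2 fold changes within 0.15 of 0. miR-148a-3p, at 16.7% of reads ± 2.40 (SD, n = 7), had a log2 fold change of -0.0069 ± 0.17 (SE) and a 95% interval of -0.40 to 0.39. miR-143-3p, at 9.73% of reads ± 2.77 (SD, n = 7), stood at -0.0094 ± 0.37 with an interval of -0.88 to 0.87. miR-26a stood at -0.0036 ± 0.11 with an interval of -0.28 to 0.27. A 2-fold difference lies outside the interval of each of these. The signs of these values carry no direction, since scaling to the upper quartile or to library totals turned each of them. miR-10b, a stromal miRNA, stood at 0.15 ± 0.24, and miR-126-3p, an endothelial one, at 0.13 ± 0.13. let-7i-5p, let-7a and let-7g stood at -0.13 ± 0.22, -0.10 ± 0.15 and -0.14 ± 0.10.

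Lists of miRNAs with a known role in fat were read against the median of 0.02 over all 161. No member of the 19 lists was called by edgeR. Of the 16 adipogenesis promoters tested, 7 had a fold change above and 9 below 0, with a median of -0.01, and of the 14 repressors 8 lay above and 6 below 0, with a median of 0.01. The most abundant promoters, miR-148a-3p, miR-143-3p, miR-26a and miR-21, are given above. Among the repressors miR-27b-3p stood at 0.02 ± 0.18 (SE), miR-125b at 0.13 ± 0.26 and miR-125a at -0.05 ± 0.30. The 9 miRNAs of thermogenic adipocytes had 4 values above and 5 below 0, with miR-378 at 0.12 ± 0.24 and miR-193a-5p at -0.22 ± 0.46. The 6 miRNAs of lipid metabolism had a median of 0.14 and the 8 of insulin and glucose handling one of 0.06. The latter list holds miR-7, given above, with miR-103 at 0.19 ± 0.26 and miR-320, listed at 0 in thick 2, at -0.56 ± 1.84.

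Over the 20 seeds shared by 2 or more tested miRNAs, medians ran from -0.33, for miR-20a and miR-17-5p, to 0.35, for miR-378 and miR-378/378b-3p. The pair miR-23a and miR-23b stood at 0.23 and 0.41. Of the 8 tested miRNAs with the let-7 seed, 6 lay below 0, with a median of -0.07 and a range of -0.36 to 0.15. The 3 members of the miR-148 seed ranged from -0.09 to 0.15, and the 3 of the miR-30 seed from 0.08 to 0.20. The 4 tested members of the miR-17-92 cluster, which drives proliferation, all lay below 0, with miR-92a at -0.31 ± 0.26 (SE), miR-20a at -0.35 ± 0.23, miR-17-5p at -0.30 ± 0.19 and miR-19b at -0.02 ± 0.19. The 9 inflammation miRNAs had a median of 0.05, with 5 above and 4 below 0.

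No marker of another cell type was called. The muscle markers ranged widely within thin fat, and the liver markers within both classes. The 3 skeletal muscle markers tested, of 6 on the list, summed to 329 to 576 CPM in thick and 257 to 1964 CPM in thin fat, and miR-206 had 884 CPM in thin 3 against 35.5 to 191 CPM in the other libraries. The liver markers miR-122 and miR-194a were both low in thin 3, at 5.38 and 4.69 CPM, and high in thin 2, at 7641 and 835 CPM. In thick 1 to 4, miR-122 had 3592, 6645, 0 and 310 reads. The 3 liver and gut markers measured summed to 162 to 2264 CPM in thick and 10.1 to 8548 CPM in thin fat. Red blood cell markers summed to 561 to 1175 CPM in thick and 415 to 1165 CPM in thin fat. Endothelial markers summed to 38058 to 46260 CPM in thick and 33948 to 43782 CPM in thin fat. The part of these cells in the values above was not tested.

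**Figure D2:**
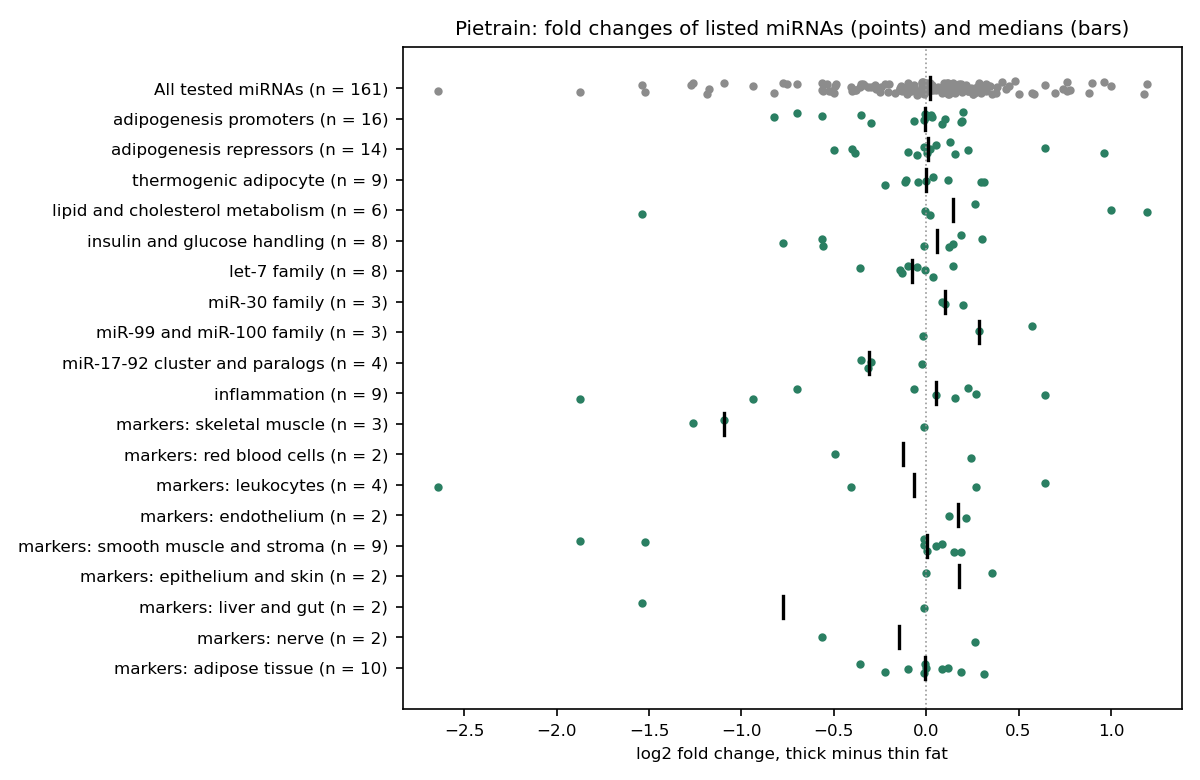
Log2 fold change, thick minus thin, of every tested miRNA (grey, n = 161) and of the members of each list (green), with the median as a black bar. The skeletal muscle list has its median at -1.09 and the liver and gut list at -0.78, and the points far to the left and right include miRNAs at 0 in some libraries.

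Some miRNAs were listed at 0 in single libraries although many reads were expected from the others. By this measure, a count of 0 where at least 100 reads were expected, 19 names were lost somewhere, with 3 to 13 of them per library. The stromal miRNA miR-199ab-3p had 13870 reads in thick 3 and 11814, 18631 and 30844 reads in thin fat, and was listed at 0 in thick 1, 2 and 4. miR-199b-5p had 2890 reads in thick 3 and 3212, 5241 and 7833 in thin fat, and 0 in the same 3 libraries. These are libraries of 2858652, 3137757 and 950751 reads, so 2 of them are the deepest. Thick 3 was the only thick library with reads of either. Without thick 3, edgeR called both as lower in thick fat, the 2 calls made under any omission of 1 library. These calls rest on leaving out the thick library that held the reads. miR-145-5p, a smooth muscle and stromal miRNA with reads in all 7 libraries, stood at 0.05 ± 0.27 (SE).

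Thick 3 stood apart from the other thick libraries by these names. The correlation of log2 CPM across 154 miRNAs was 0.757 to 0.798 between thick 3 and the other thick libraries, and 0.815 to 0.912 between thick 3 and the thin ones. Across the 136 miRNAs that were not lost in any library, it was 0.953 to 0.973 and 0.951 to 0.964. These are correlations across miRNAs, which are not independent replicates. Other miRNAs went to 0 elsewhere: miR-10a-5p had 5954 to 21274 reads in 6 libraries and 0 in thin 2, and miR-320 had 1606 to 7771 reads in 6 libraries and 0 in thick 2. miR-142-5p, a leukocyte miRNA, had 143 reads in thick 3, 643 and 676 in thin 2 and thin 3, and 0 in the other 4.

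Single sequences were then tested without summing. edgeR called 65 of 3055 sequences (2.13%), 29 higher (0.949%) and 36 lower (1.18%) in thick fat, and 270 (8.84%) had an unadjusted p under 0.05. All 65 were single-base changes. These are reads that match a much more abundant sequence of the same name and length, with 10 or more times the reads, except for 1 base. Single-base changes made up 1651 of the sequences tested, of which 3.94% were called. Of the 1404 sequences of all other kinds, edgeR called 0. Among those were the main sequences of 156 miRNAs, 7 of which had an unadjusted p under 0.05. The called sequences belonged to 22 miRNAs, led by miR-148a-3p, miR-10b and miR-30a-5p with 6 each, and 45 of the 65 were changed at the first base.

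A change is written as the original base, its position from 1 at the 5′ end, and the base read, so that G17U is a read with U in place of G at position 17. The pairs below are shown because they carry the calls. Each gives the unchanged sequence and then the changed one, with the changed base in capitals.
let-7i-5p: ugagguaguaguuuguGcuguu
let-7i-5p G17U: ugagguaguaguuuguUcuguu
miR-30a-5p: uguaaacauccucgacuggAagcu
miR-30a-5p A20C: uguaaacauccucgacuggCagcu
miR-151-3p: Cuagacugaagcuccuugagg
miR-151-3p C1A: Auagacugaagcuccuugagg
miR-27b-3p: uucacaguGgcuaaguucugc
miR-27b-3p G9U: uucacaguUgcuaaguucugc
miR-126-3p: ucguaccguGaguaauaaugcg
miR-126-3p G10U: ucguaccguUaguaauaaugcg
miR-100: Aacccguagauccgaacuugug
miR-100 A1C: Cacccguagauccgaacuugug
miR-148a-3p: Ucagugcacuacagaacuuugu
miR-148a-3p U1G: Gcagugcacuacagaacuuugu
miR-148a-3p U1A: Acagugcacuacagaacuuugu
None of these changed bases lies in the seed, which is spelled the same in both reads of each pair. Positions 2 to 7 held only 0.0751% of the reads with a single-base change, so changes there could hardly be called.

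let-7i-5p shows the contrast most plainly. Its unchanged sequence had 132662, 103135, 27358 and 26820 reads in thick 1 to 4 and 69512, 63353 and 57341 reads in thin 1 to 3. The G17U read had 0 reads in all 4 thick libraries and 150, 158 and 124 reads in thin fat. At the share seen in thin fat, the thick libraries would have held 301, 234, 62.1 and 60.9 such reads, and a listed 0 can stand for at most 5. This sequence had the smallest p of all 3055 (edgeR adjusted p = 0.00153) and remained called under each omission of thin 2 or thin 3, where it was the 1 call left.

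The other reads that were higher in thin fat repeated this pattern at other positions. In miR-30a-5p, the A20C read had 0, 8, 0 and 0 reads in thick fat and 77, 118 and 72 in thin fat, beside 2790 to 9915 unchanged reads in the 7 libraries. In miR-151-3p, the C1A read had 0 reads in all thick libraries and 37, 41 and 34 in thin fat, where the thin share would give 17.5 to 77.6 reads in thick fat. The G9U read of miR-27b-3p (35, 39 and 33 reads in thin fat) and the G10U read of miR-126-3p (45, 35 and 24) were also at 0 in all thick libraries. Of the 36 sequences called lower, 15 were at 0 in all 4 thick libraries, and no fold is given for them. These 15, the G17U read of let-7i-5p among them, passed the filter through thin fat alone, so they could only be called lower. With a count above 0 required in every library, edgeR called 53 sequences, of which 42 were U1G reads higher in thick fat. The A1C read of miR-100 had 13, 8, 0 and 0 reads in thick fat and 46, 84 and 98 in thin fat.

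The called sequences that were higher in thick fat all carried U1G. For miR-148a-3p, that read had 2552, 3673, 1148 and 1216 reads in thick fat and 603, 648 and 561 in thin fat. Per 1000 unchanged reads this was 8.79, 8.89, 9.29 and 8.20 in thick and 3.04, 2.68 and 2.69 in thin fat. Thick libraries agreed within a narrow range and all lay far above the thin ones (log2 fold change 1.68 ± 0.20, SE, edgeR adjusted p = 0.00758). let-7g gave the smallest p among them, with 393, 464, 125 and 155 reads against 75, 73 and 68 (1.77 ± 0.19, edgeR adjusted p = 0.00728). miR-26a had 834, 1072, 205 and 332 reads against 154, 155 and 168 (1.66 ± 0.19). The 29 sequences came from 13 miRNAs. Of the 29, 1 read of miR-10b had 22, 35, 9 and 14 reads in thick fat and 0 in all thin libraries. It passed the filter through thick fat alone, so it could only be called higher. The U1A read of miR-148a-3p went the other way, with 311, 438, 121 and 149 reads in thick fat and 431, 454 and 389 in thin fat.

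The count of calls depended on single libraries. Without thin 2 or without thin 3 edgeR called 1 sequence each, the G17U read of let-7i-5p, and without thin 1 it called 22. Without thick 1, 2, 3 and 4 it called 43, 32, 110 and 36. Of these calls, 27 of the 110 without thick 3 and 2 of the 22 without thin 1 were not single-base changes. All calls under the other omissions were. DESeq2 called 134 (4.39%) and had 294 (9.62%) at an unadjusted p under 0.05. Of the 134, 124 were single-base changes and 65 were the calls of edgeR. limma-voom called 80 (2.62%), 72 of them single-base changes, and had 459 (15.0%) at an unadjusted p under 0.05. In the authors' deposited table, which compares sequences with DESeq2, 89 were called, 49 of them also by edgeR here. In the authors' deposited table the 26 higher in thick fat were 25 U1G reads and 1 read with a longer 3′ end. The 63 higher in thin fat in the authors' deposited table were 61 single-base changes, 1 main sequence and 1 other, with 12 A1C, 11 G10U, 9 A20C, 7 C1A, 5 G17U and 5 G9U reads among them.

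Reads were therefore summed over all miRNAs by change. Each change was given as a share of the reads that have or had the original base at that position. The sums hold the reads called above, and the edgeR test of them was chosen after seeing the data. Its p-values are therefore no independent support for those calls. Of 213 kinds of change seen, 137 had at least 5 sequences and 500 reads. edgeR on these summed reads called 14 of 137 (10.2%), 2 higher (1.46%) and 12 lower (8.76%) in thick fat. The 12 include C1A, which had no listed reads in thick fat and could only be called lower. Shares did not overlap between classes for 24 of 137 (17.5%). For each of these 24 the exact two-sided permutation test gave p = 0.0571, the smallest that 4 against 3 libraries can give, and 0.326 after adjustment over the 137. The edgeR calls draw on a spread between libraries that is estimated across all changes. They compare the reads of a change scaled to the library, not its share. An edgeR p-value set beside shares below therefore tests the reads.

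At the first base, U1G held 0.708, 0.736, 0.712 and 0.669% of such reads in thick 1 to 4 and 0.209, 0.219 and 0.205% in thin 1 to 3. Both classes were tight, and the thick mean was 3.35 times the thin one (log2 fold change of the reads 1.84 ± 0.13, SE, edgeR adjusted p = 3.8e-09). It rested on 53389 reads in 234 sequences of 46 miRNAs. Of these, 19 had such reads in thick fat alone, where the listing of small counts as 0 fixes the direction, and the others all had the higher share in thick fat. U1A and U1C went the other way in the same libraries. U1A held 0.0750, 0.0747, 0.0555 and 0.0584% in thick and 0.154, 0.147 and 0.136% in thin fat (-1.07 ± 0.11, edgeR adjusted p = 1.2e-06), and U1C held 0.260 to 0.290% in thick and 0.368 to 0.396% in thin fat (-0.38 ± 0.12, edgeR adjusted p = 0.0486). The U1C call was lost in 6 of the 7 fits without 1 library, while U1G and U1A were called in all of them.

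Among reads whose unchanged sequence begins with A or C, A1C and C1A were called. Positions count from the start of each sequence, not of the main sequence of its name. C1A thus includes a read of miR-126-3p, whose main sequence begins with U, in a form with an added 5′ base. A1C held 0.0402, 0.0346, 0.0198 and 0.0225% in thick and 0.415, 0.425 and 0.394% in thin fat, so the thin mean was 14.0 times the thick one (-3.38 ± 0.21, SE, edgeR adjusted p = 1.8e-09). Of its 11 miRNAs, 8 had such reads in thin fat alone, where the listing of small counts as 0 fixes the direction. C1A was listed at 0 in all 4 thick libraries and held 0.489, 0.506 and 0.531% in thin fat. Its 29 sequences of 13 miRNAs had 327, 277 and 272 reads there (edgeR adjusted p = 1.8e-09). All its reads came from thin fat. It thus passed the filter of 500 reads through that class alone and could only be called lower. Were every listed 0 of these 29 sequences set to 5 reads, C1A would reach 0.538% in thick 3, so the smallest counts bear on its separation in the shallow libraries. The other tested changes of these first bases overlapped between classes and were not called. A1G, with 18221 reads, stood at 0.55 ± 0.21 (SE, edgeR adjusted p = 0.223), A1U at -0.44 ± 0.29 and C1G at -0.18 ± 0.32. For C1A in thick 1 and thick 2 the bound with every 0 at 5 reads was 0.166 and 0.139%, against at least 0.489% in thin fat.

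Inside the sequence, the differences stood at single positions and in single directions. G9U held 0.00169, 0.00268, 0 and 0.00546% in thick and 0.0834, 0.142 and 0.0995% in thin fat, and G10U held 0.00662, 0.00602, 0 and 0.00588% in thick and 0.108, 0.131 and 0.120% in thin fat. G17U held 0.00209, 0.00343, 0 and 0% in thick and 0.144, 0.149 and 0.168% in thin fat. The lowest thin library was above the highest thick one by a wide margin for each of these changes (edgeR adjusted p = 6.6e-08, 2.1e-05 and 1.8e-09). Of the 11 miRNAs with G9U reads, 10 had them in thin fat alone, as did 7 of 9 for G10U and 6 of 7 for G17U. For those miRNAs the listing of small counts as 0 fixes the direction. A20C held 0.0416, 0.0624, 0.0259 and 0.0243% in thick and 0.659, 0.870 and 0.624% in thin fat (edgeR adjusted p = 1.8e-09). The separation held for G10U, G17U, A20C and A1C with every listed 0 at 5 reads, but not for G9U, which would reach 0.125% in thick 3. It did not hold in that case for A10C, U11C and U13G either, which are called below.

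The smaller called differences were mostly changes from A to C. A10C held 0.00545 to 0.0127% in thick and 0.0274 to 0.0350% in thin fat, A11C 0.0149 to 0.0219% and 0.0307 to 0.0412%, and A13C 0.0170 to 0.0208% and 0.0381 to 0.0435%. For A13C, 4 of 6 miRNAs had such reads in thin fat alone. A8C, A9C and A17C were also lower in every thick library than in every thin one, but edgeR did not call them. U13G held 0.0374 to 0.0581% in thick and 0.0748 to 0.0894% in thin fat. U11C, the other change higher in thick fat, held 0.160 to 0.212% there and 0.133 to 0.157% in thin fat, with 6 of 12 miRNAs higher in each class. Its thick mean share was 1.29 times the thin one, a smaller gap than in its reads (log2 fold change 0.76 ± 0.19, SE, edgeR adjusted p = 0.0135). A10G, the change that reads of edited RNA would show at position 10, held 0.221 to 0.246% in thick and 0.252 to 0.257% in thin fat and was not called. In the 8 fits, with all libraries and without each in turn, 10 changes were called every time: A1C, C1A, U1A, U1G, G9U, G10U, A10C, A13C, G17U and A20C. C1A, with no listed reads in thick fat, could only be called lower in each of these fits.

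**Figure D3:**
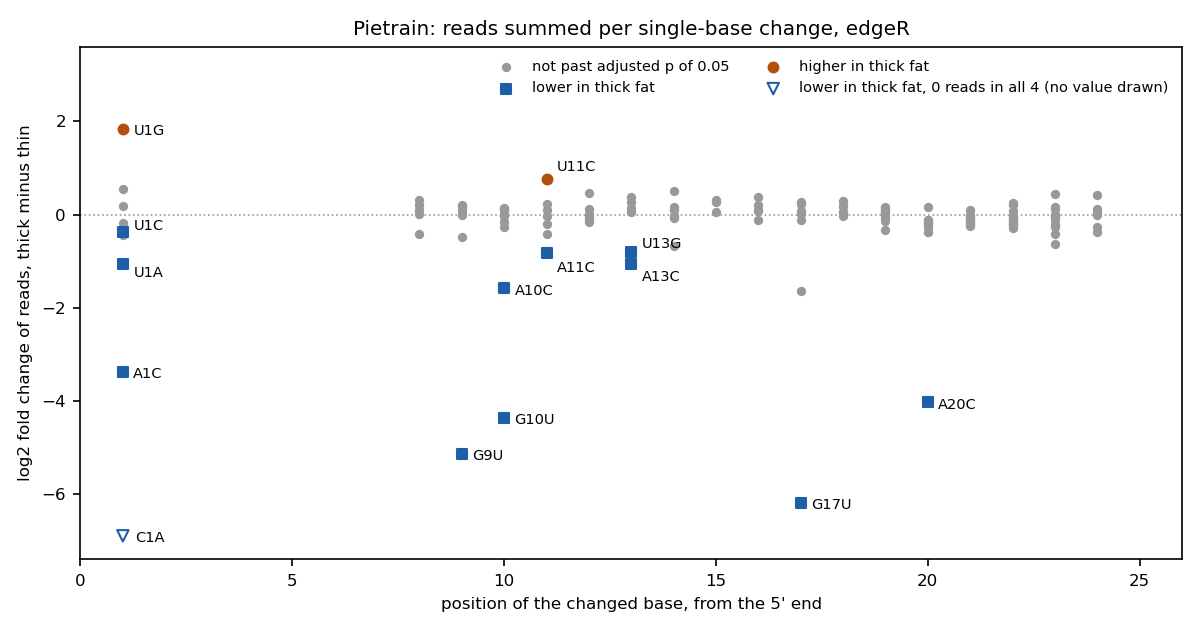
Log2 fold change of reads, thick minus thin, for the 137 single-base changes by position of the changed base; coloured points passed edgeR's adjusted p of 0.05, and the open triangle for C1A marks 0 reads in all thick libraries, with no value drawn. U1G stands alone above 1, and the points below -3 are A1C, G9U, G10U, G17U and A20C.

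The changes were not spread evenly along the molecule. Single-base changes held 7.44% of named reads, of which 13.7% were changed at the first base and 0.0751% at positions 2 to 7. Summed over all bases, position 1 held 1.16, 1.15, 1.01 and 0.971% of named reads in thick and 0.846, 0.907 and 0.853% in thin fat. Position 22, near the 3′ end, held the most, with means of 1.94% in thick and 2.17% in thin fat. Position 21 had means of 0.964% and 1.06%. The classes overlapped at both of these positions. Positions 2, 10, 17 and 23 were lower in each thick than in each thin library. Positions 10 and 17 had means of 0.223% ± 0.00685 (SD, n = 4) against 0.286% ± 0.0129 (SD, n = 3) and of 0.156% ± 0.0186 (SD, n = 4) against 0.195% ± 0.00113 (SD, n = 3). Positions 11, 15, 16 and 18 overlapped, with means that differed by less than 0.01 percentage points. For the positions that did not overlap, the exact two-sided permutation p was again 0.0571, or 0.251 adjusted over positions.

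**Figure D4:**
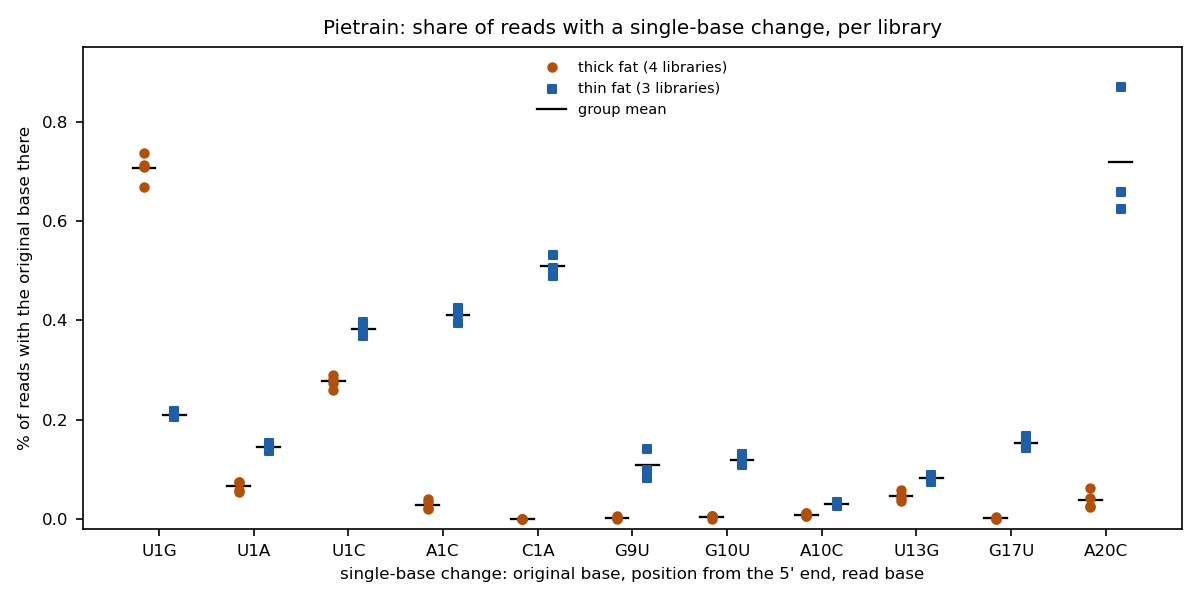
Share of reads with a given single-base change, in % of the reads that have or had the original base there, for each thick (circles) and thin (squares) library with the group mean as a bar. U1G is higher in thick fat and the other 10 changes drawn are higher in thin fat, with no overlap for any of them.

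The first-base shares are described per miRNA in the main sequences of the 20 most abundant miRNAs that begin with U. These supply part of the pooled reads above and of the called sequences, so they are no independent support for the difference. In 19 of 20 the U1G share was higher in every thick than in every thin library, with ratios of the means from 1.86 for miR-152 to 3.96 for let-7a and a median of 2.99. The gap in miR-152 was small, with 0.474% in thick 3 from 9 reads and 0.473% in thin 3 from 26. let-7a had 0.682, 0.707, 0.679 and 0.647% in thick and 0.176, 0.174 and 0.164% in thin fat. The exception was miR-30a-5p, with 0 U1G reads of the main sequence in all libraries. Shorter and longer sequences of that name, which covers both a CCUCG and a CCCCG form, did carry U1G reads that edgeR called higher in thick fat. The U1A share was lower in every thick than in every thin library in 14 of the 20, as was the U1C share.

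Within a class, the U1G shares of some unrelated miRNAs lay close to each other. miR-143-3p had 0.756 to 0.956% in thick and 0.211 to 0.329% in thin fat, miR-126-3p 0.718 to 0.844% and 0.255 to 0.269%, and miR-21 0.704 to 0.901% and 0.225 to 0.290%. These are miRNAs of adipocytes and smooth muscle, of endothelium and of many cell types. Other miRNAs were more spread, such as miR-24-3p, with 0.484, 0.153 and 0.179% in thin 1 to 3. The thick mean over the 19 miRNAs with U1G reads ran from 0.655% to 1.01% and the thin mean from 0.171% to 0.418%. In miR-10a-5p the thin mean is of 2 libraries, since thin 2 had no reads of it. edgeR called the summed level of none of these miRNAs.

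**Figure D5:**
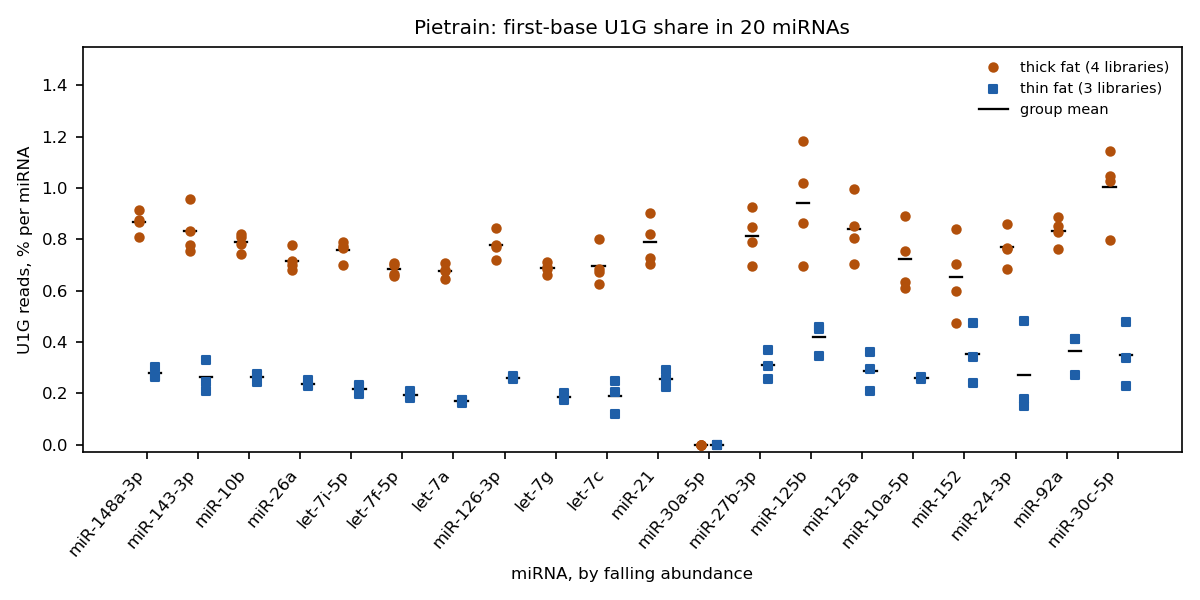
Share of U1G reads of the main sequence, in %, in 20 abundant miRNAs that begin with U, for each thick (circles) and thin (squares) library with the group mean as a bar. In 19 miRNAs every thick library lies above every thin one, and miR-30a-5p is at 0 throughout.

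The shares of the other kinds of isomiR overlapped between the classes. The main sequences held 52.8, 54.1, 55.7 and 56.5% of named reads in thick and 53.4, 53.5 and 53.4% in thin fat. Reads longer at the 3′ end held 14.1% ± 1.07 of reads in thick (SD, n = 4) against 14.3% ± 0.348 in thin fat (SD, n = 3). Reads shorter there held 9.53% ± 0.278 (SD, n = 4) against 9.87% ± 0.270 (SD, n = 3). Reads with a shifted 5′ start, which have another seed, held 2.66% ± 0.237 (SD, n = 4) and 2.67% ± 0.237 (SD, n = 3). All single-base changes together held 7.08% ± 0.562 (SD, n = 4) and 7.59% ± 0.171 (SD, n = 3). The mean read length was 21.9 nt in both classes. Groups overlapped for all 8 measures, and the exact two-sided permutation p was at least 0.171 (0.914 after adjustment over the 8). With 4 against 3 libraries that test cannot go below 0.0571, so it could call no measure and does not show the classes to be alike.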

How the data were processed

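Per the labels' protocols, NEBNext small RNA libraries were gel-selected and read from 1 end on an Illumina HiScan SQ. Tools named in the submitters' processing notes are FastQC, bcl2fastq and DESeq2, with Sscrofa 10.2 as genome build. Their versions, the trimmer, aligner, mismatch rules and miRNA annotation are not given in the sources used here. The authors deposited raw counts per sequence, and, per the file headers, a comparison with mean signal, log2 fold change, score, p-value and adjusted p-value.

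Counts were summed per name and tested with edgeR 4.0.16 (quasi-likelihood, robust, TMM, filterByExpr, limma 3.58.1, R 4.3.3), with Benjamini-Hochberg adjustment over all features tested. A standard error is the log2 fold change over the square root of F. DESeq2 1.42.0 and limma-voom were alternatives. Members and lists were chosen with earlier results of these data known. Named miRNAs are the 8 of smallest p per direction, the 10 most abundant, and up to 4 per list by abundance. The edgeR test of sums per change was chosen after seeing the data. The 9 library pairs within groups differed beyond sampling noise (chi-square per degree of freedom at least 285). Reads carry no molecular identifiers and are not independent molecules. On simulated counts, edgeR recovered 7% of 2-fold and 50% of 4-fold changes among 161 miRNAs, and 2.6% and 35.2% among 3055 sequences.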

Additional observations from a re-analysis of the deposited data

Results flagged for a closer look

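Of 55 measures tested for a value far from the other 3 in the 4 thick libraries, 5 held one. Chance flags about 1 in 20 groups, and some of these measures share reads. Thick 3 had the low value of miR-155-5p, 252 CPM against 396 to 409 CPM, and the high value of miR-23b, 8359 CPM against 4672 to 5167 CPM. Thick 2 had the low value of let-7g, 29981 CPM against 33860 to 34524 CPM. Thick 3, the shallowest library, was listed at 0% for the G10U share against 0.00588 to 0.00662%, and had the low value of the C23A share, 2.12% against 2.48 to 2.53%. Its depth was 759210 reads. The part of depth in these values was not tested.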

How the results depend on the processing

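No paired analysis was possible because the labels give the Pietrain libraries separate numbers that no 2 groups share. For miRNA sums edgeR called 0 under 4 scalings, 3 filters, the main sequences alone and without single-base changes, DESeq2 called 1, and leaving out 1 library gave 0 to 2. For single sequences, no filter gave 106 calls, DESeq2 134 and the table without first-base changes 12, and leaving out 1 library gave 1 to 110. With a count above 0 required in every library, 53 were called, 42 higher and 11 lower in thick fat. Calls on reads summed per change ran from 10 to 16 without 1 library.

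Values near 0 changed sign. With upper quartile scaling, library totals and the main sequences alone, miR-143-3p moved to 0.0110, 0.0086 and 0.0413 and miR-26a to 0.0310, 0.0188 and 0.0215. miR-148a-3p moved to 0.0180 and 0.0259 with the first pair of these. Without 1 library the ranges were -0.171 to 0.0764 for miR-148a-3p, -0.295 to 0.174 for miR-143-3p, -0.107 to 0.294 for miR-10b, -0.0991 to 0.0673 for miR-26a and -1.63 to 0.0565 for miR-133a-3p. Among the isomiR classes, the difference in percentage points ran from -0.468 to 0.0096 for a changed 3′ end, from -0.613 to 0.262 for a longer 3′ end, from -0.142 to 0.0783 for a shifted 5′ start and from -0.209 to 0.0817 for other reads. The shifted 5′ start stood at 0.0922 in the 20 most abundant miRNAs. The mean length differed by -0.0417 to 0.00137 nt. For these reversals the cause was not tested. Depth limits shares under a few reads per sequence, since counts of 1 to 5 are listed as 0.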
